A study of Mus musculus with 8 samples.

Results

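The regions described here are 6205 open chromatin regions (OCRs, the peaks of an ATAC-seq experiment) in which B2 was the only retrotransposon. An OCR was taken when it was under 1500 bp long, shared at least 1 base with an annotated copy of the B2 family and shared no base with any other LINE, SINE, LTR or Retroposon copy. They made up 3.35% of the 185268 OCRs of the series, of which 181314 met the length limit. The OCRs and their lengths come from peaks called on sequencing reads. Beyond that, no count of a region or copy entered the rule. By the names of the copies they held, 1729 were B2_Mm regions (B2_Mm1a, B2_Mm1t or B2_Mm2), 4220 were B3 regions (B3 or B3A) and 256 held copies of both kinds and are called mixed.

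ATAC-seq counts where a transposase could cut nuclear DNA, here in primary lung fibroblasts. The 8 libraries came from 4 cGAS KO mice (2 with a female and 2 with a male label) and 4 WT mice (2 and 2). cGAS is the cytosolic DNA sensor that starts the type I interferon response. The allele, the strain, the age of the mice and the passage of the cells are not given in the labels, all cells were cultured in the same serum-containing medium at lowered oxygen, and libraries are called KO F1 or WT M2 by genotype, sex label and number.

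B2 is a short interspersed element of rodents that descends from a tRNA gene. It carries an internal promoter for RNA polymerase III, codes for no protein and spreads with the machinery of L1 elements. The B2_Mm names stand for the younger copies, close to each other in sequence, and B3 and B3A for older, more diverged ones. B2 copies are known in the mouse for carrying binding sites of CTCF, the factor that bounds chromatin loops, and B2_Mm2 copies for acting as enhancers in cells treated with interferon.

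The table held 43.2 to 72.9 M counts per library, of which 28.0 to 55.3 M lay in OCRs. The median B2 region held 48 to 93 counts per library. The library labelled KO F2 went against its sex label. Over the 15 OCRs in the first 2 Mb of the Y chromosome, a limit chosen with the counts in view, its value was 25.0 CPM (counts scaled to the total in OCRs), against 31.2 to 43.3 CPM in the male-labelled libraries and no more than 0.0571 CPM in the rest of the female-labelled ones. On the first principal component of the OCRs that are not B2 regions (46.7% of their variance), KO F1 and M1 together with WT F1 and M2 lay on the negative side (-140.1 to -59.1) and the other 4 libraries on the positive side (84.2 to 120.3). This split crosses both genotypes and both sex labels. The regions carry no gene names in the build of the table, so neither the targeted gene nor fibroblast markers were checked here. ATAC-seq of bulk cells does not tell fewer cells with an open region apart from less cutting per cell.

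Most B2 regions held a single copy that filled a minority of the region. Of the 6205, 5582 held 1 copy and 623 held several. The copies covered 32.3% of a region's length on average, with a median of 150 bases shared, and the centre of the region fell inside a B2 copy in 1999 of them (32.2%). In 930 regions fewer than 50 bases were shared, so that the copy only touched the region's edge or was itself a fragment. Another class of repeat, such as a simple repeat or a DNA transposon, was also present in 1856 regions.

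The single names were unequally common among these regions. B3 alone was present in 2539 regions, B3A in 1577, B2_Mm2 in 1162, B2_Mm1t in 235 and B2_Mm1a in 222. The median length was 478 bp in B2_Mm regions, 458 bp in B3 regions and 439 bp in mixed regions, against 514 bp in the 175109 other OCRs under the limit. The B2 share of the length was close in the 2 kinds, with a mean of 31.1% in B2_Mm and 31.3% in B3 regions. It was 58.2% in mixed regions, which hold at least 1 copy of each kind.

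Few B2 copies of the genome lay in open chromatin. The annotation held 352811 B2 copies, of which 15107 (4.28%) shared a base with an OCR and 6880 (1.95%) with one of the 6205 regions. By name, 1.63% of B2_Mm1a copies, 1.47% of B2_Mm1t copies and 1.83% of B2_Mm2 copies lay in these regions, against 2.05% of B3 and 2.10% of B3A copies. For any OCR the shares were 3.70%, 3.19% and 4.20% for the 3 B2_Mm names in the same order, and 4.36% for B3 and 4.67% for B3A. Median copy lengths ranged from 175 bp (B3A) to 190 bp (B3) and were within 1 bp of this in the regions. These shares are the same for all libraries, since 1 set of OCRs was counted, and were not tested.

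The sex chromosomes held fewer of these regions, and fewer OCRs of any kind, than their B2 copies would give in proportion. X held 130 of the 6205 (2.10%), 2.31% of all OCRs and 4.57% of all B2 copies. Y held 0 of the 6205 regions, 87 OCRs and 5327 B2 copies. B2 regions made up 3.04% of the OCRs on X. Among the chromosomes other than X and Y they made up from 2.94% of the OCRs on chromosome 2 to 4.09% on chromosome 17.

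Read ends, as divided between OCRs and repeats in the counts, were sparser in B2 regions than in the other OCRs of the same length limit. Read-end density, in counts per kb of region per M counts in OCRs, averaged 5.87 ± 0.147 over B2 regions and 7.08 ± 0.0846 over the other OCRs (SD, n = 8 libraries). In each library the B2 regions had the lower mean. The ratio was 0.829, with a 95% interval of 0.806 to 0.852 and a range of 0.797 (KO F1) to 0.861 (KO F2) between libraries (exact two-sided sign-flip test over 256 sign patterns, p = 0.00781, the smallest that 8 libraries can give; adjusted p = 0.0104 over 8 such tests). Single B2 regions spread far more widely than this difference, with a median of 3.56, quartiles of 2.10 and 7.13 and extremes of 0.708 and 62.6, against a median of 4.35 and quartiles of 2.53 and 8.64 in the other OCRs.

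The size of this gap depended on how read ends were counted. A read end inside an annotated repeat was divided between the OCR and the repeat, which lowers the OCR's own count. With the counts of repeats lying wholly inside an OCR added back to it, the log2 ratio was -0.17 in place of -0.27, still lower in every library (exact sign-flip p = 0.00781). Copies that cross the edge of an OCR were not added back, so this setting undoes only a part of the division. Whether a gap remains with all read ends restored was not tested. OCRs that held only B1 copies, the other abundant mouse SINE, are counted in the same manner and had 8.42 ± 0.103 counts per kb per M over 7511 regions. They were longer, with a median of 556 bp against 462 bp in B2 regions. Where a single copy lay wholly inside, B1 copies were shorter, with a median of 111 bp against 182 bp (B2_Mm) and 183 bp (B3). The part of these differences was not tested. At the length limit, the 42 B2 regions of 1400 to 1499 bp had a density of 13.6 ± 0.600, and the 21 OCRs of 1500 to 1600 bp that held only B2 had 14.4 ± 1.19.

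Among the names, regions with B2_Mm1a had the highest mean density and mixed regions the lowest. In counts per kb per M counts in OCRs (mean ± SD, n = 8), density was 7.23 ± 0.382 with B2_Mm1a alone, 6.52 ± 0.355 with B2_Mm1t alone and 6.03 ± 0.246 with B2_Mm2 alone. It was 5.94 ± 0.0830 with B3A alone, 5.86 ± 0.0989 with B3 alone and 4.64 ± 0.329 in mixed regions. B2_Mm2, B3A and B3 lie within 1 SD of B2_Mm2 of each other, while B2_Mm1a, B2_Mm1t and B2_Mm2 each lie more than 1 SD from the next. The SD between libraries was larger for each B2_Mm name than for B3 or B3A. Median region length was 543 bp for B2_Mm1a, 477 bp for B2_Mm1t, 469.5 bp for B2_Mm2, 470 bp for B3A, 450 bp for B3 and 439 bp for mixed. The part of length in the order of names was not tested. With the counts of repeats wholly inside added back, B2_Mm1a regions were still highest (7.39) and mixed regions lowest, at 5.76 in place of 4.64.

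**Figure D1:**
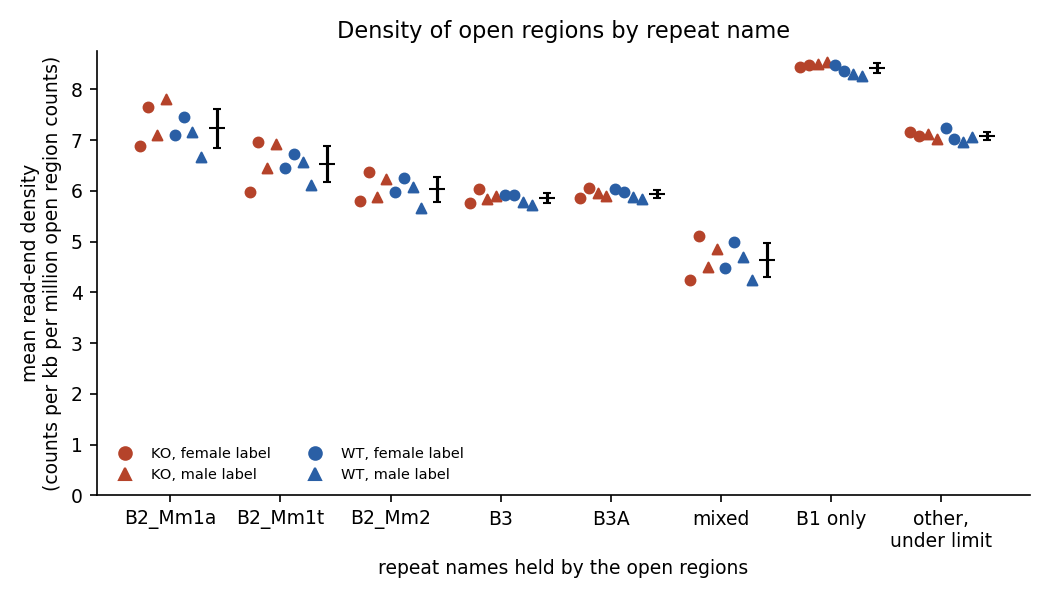
Mean read-end density (y axis, counts per kb per M counts in OCRs) of OCRs by the repeat names they hold (x axis), 1 point per library in red for KO and blue for WT, circles for female and triangles for male labels, with bars for mean ± SD of 8 libraries. B2_Mm1a regions sit highest among the B2 names (7.23), B3 and B3A regions have the least spread among the B2 names, and all B2_Mm2, B3, B3A and mixed values lie below those of other OCRs under the limit (7.08) and of B1-only OCRs (8.42).

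As a class, B2_Mm regions had a slightly higher mean density than B3 regions, a difference that depended on how it was computed. Density was 6.13 ± 0.287 in B2_Mm and 5.84 ± 0.0911 in B3 regions (SD, n = 8), a ratio of 1.05 with a 95% interval of 1.01 to 1.08. B2_Mm was higher in 7 of 8 libraries, with log2 ratios of -0.0022 (WT M2) to 0.13 (KO M2) (exact two-sided sign-flip p = 0.0156, adjusted p = 0.0179 over 8 tests). The log2 ratio of 0.068 fell to 0.046 with read ends restored (exact p = 0.0781), to 0.053 with at least 50 shared bases (exact p = 0.0625) and to 0.029 without regions holding another repeat class (exact p = 0.0938). With the median region in place of the mean it was -0.015 (exact p = 0.680). Between genotypes the ratio differed by less than the spread, at 0.077 ± 0.058 in KO libraries and 0.059 ± 0.052 in WT libraries on the log2 scale (SD, n = 4 each; exact two-sided permutation test over 70 assignments, p = 0.571).

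The B2_Mm regions with the highest CPM held 1 copy each, in a small part of the region. The first, chr11:49701576-49702810 (coordinates as in the table, GRCm39), is 1235 bp long with 119 bases of B2_Mm1a. It had 49.4, 60.8, 43.5 and 48.6 CPM in KO F1, F2, M1 and M2, and 48.6, 64.4, 85.9 and 64.7 CPM in WT F1, F2, M1 and M2. The groups overlap, and WT M1 is the highest (fold 0.772 in KO over WT, log2 -0.37 ± 0.17 SE, edgeR adjusted p = 0.512). The second, chr11:96668164-96669036, with 79 bases of B2_Mm1t, had 46.6, 50.8, 46.5 and 53.9 CPM in the KO libraries and 48.2, 50.6, 54.9 and 46.6 CPM in the WT libraries, in the same order. Both groups span nearly the same range there. The B2_Mm2 region chr5:115790641-115791624, with 167 bases of the copy, had 50.9, 52.0, 44.2 and 51.1 CPM in KO and 48.8, 50.3, 51.6 and 45.8 CPM in WT.

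The 3 B3 regions with the highest CPM also held 1 copy each. The region chr6:3200672-3201672, with 111 bases of B3A, had 46.9, 78.5, 48.0 and 84.8 CPM in KO F1, F2, M1 and M2, and 65.9, 67.3, 55.6 and 53.7 CPM in WT F1, F2, M1 and M2. KO F1 and KO M1 are low and KO F2 and KO M2 high, so the KO libraries lie on both sides of the WT ones. At chr2:154231883-154232919, with 63 bases of B3A, the KO libraries had 61.7, 49.8, 56.8 and 46.6 CPM and the WT libraries 60.0, 56.4, 69.4 and 68.5 CPM. The order of the KO libraries is the reverse of that at the previous region. The B3 region chr7:6174414-6175891, with 183 bases of the copy, had 48.2, 60.5, 52.7 and 61.6 CPM in KO and 47.4, 63.9, 66.7 and 51.6 CPM in WT. For the second to sixth of these regions the edgeR adjusted p ranged from 0.555 to 0.993.

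Where a copy lay wholly inside a region with no other repeat, cutting inside the copy was compared with cutting in the rest of the region. There were 1643 such regions, 447 with a B2_Mm and 1196 with a B3 copy. Their geometry was alike, with a median copy length of 182 bp in B2_Mm and 183 bp in B3 regions, a median region length of 391 and 396 bp in the same order, and a copy that covered the region's centre in 60.4% and 61.2%. The ratio of read-end density in the copy to that in the flanks, summed over regions, was 0.721 ± 0.0854 for B2_Mm and 1.01 ± 0.0849 for B3 (SD, n = 8).

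Fewer read ends were counted in copies of B2_Mm, relative to their flanks, than in copies of B3. By library the B2_Mm ratio was 0.612, 0.815, 0.680 and 0.797 in KO F1, F2, M1 and M2, and 0.684, 0.819, 0.746 and 0.615 in WT F1, F2, M1 and M2. The B3 ratio was 0.890, 1.10, 0.989 and 1.07 in the KO libraries and 0.978, 1.11, 1.04 and 0.903 in the WT libraries, in the same order. In each of the 8 libraries the B2_Mm ratio is the lower one. The log2 difference of B2_Mm minus B3 was -0.49, with a 95% interval of -0.54 to -0.44 (exact two-sided sign-flip p = 0.00781, adjusted p = 0.0104 over 8 tests). It was -0.28 with at least 100 bp of flank on each side, -0.57 with copies of at least 100 bp and -0.52 with the median of the regions' own ratios, each at the same exact p. Without each library in turn it ranged from -0.50 to -0.48 (exact p = 0.0156 each time, the smallest that 7 libraries can give). How reads with several equal matches were placed is not given in the sources used here. It bears on near-identical B2_Mm copies more than on B3 copies, so fewer read ends in B2_Mm cannot be told apart from fewer placed reads.

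Whether a copy had a lower or higher density than its own flanks depended on the setting. The B2_Mm log2 ratio was -0.48 (95% interval -0.63 to -0.31; exact sign-flip p = 0.00781), but 0.011 (exact p = 0.664) in the 64 regions with at least 100 bp on each side and -0.074 (exact p = 0.117) as the median of own ratios. The B3 log2 ratio was 0.010 (-0.099 to 0.12; exact p = 0.844), but 0.30 and 0.45 in those settings (exact p = 0.00781 for both). Depth is the OCR's own mean count, in which a read end in the copy weighs less than an end in the flanks. A high ratio thus lowers the depth itself, and the part of this was not tested. The summed ratio also hides a difference by this depth. In regions with a mean of at least 50 counts it was 0.785 ± 0.0552 for 212 B2_Mm and 1.13 ± 0.0467 for 633 B3 regions, and below 50 counts it was 2.84 ± 0.300 for 235 B2_Mm and 3.33 ± 0.337 for 563 B3 regions, so that the value over all regions lies below those of both parts. Taken singly, 320 of 447 B2_Mm copies (71.6%) and 915 of 1196 B3 copies (76.5%) had the higher density inside the copy. The copy covered the region's centre in 60.4% of these B2_Mm and 61.2% of these B3 regions. The part of its position within the peak was not tested, so these counts are not a trait shown for B2 sequence.

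By name, the B2_Mm copies lay below the B3 names in the deeper regions. At a mean of at least 50 counts the ratio was 0.683 ± 0.0870 for 27 B2_Mm1a, 0.761 ± 0.0579 for 28 B2_Mm1t and 0.807 ± 0.0519 for 157 B2_Mm2 copies. It was 1.11 ± 0.0528 for 399 B3 and 1.16 ± 0.0372 for 234 B3A copies. Neighbouring B2_Mm names differ there by less than the larger of their SDs, and each lies below both B3 names by more than 3 of its SDs. Below 50 counts the ratio was 1.80 ± 0.243 for 23 B2_Mm1a, 2.63 ± 0.468 for 31 B2_Mm1t and 3.09 ± 0.288 for 181 B2_Mm2 copies, and 3.64 ± 0.472 for 364 B3 and 2.96 ± 0.164 for 199 B3A copies. B2_Mm2 and B3A are not apart in these shallow regions.

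B1 copies, treated in the same way, behaved differently between libraries. In 1707 regions with a single B1 copy wholly inside, the ratio was 0.657 ± 0.0334 (SD, n = 8). The log2 difference of B2 (B2_Mm and B3 together) minus B1 was 0.49 (95% interval 0.32 to 0.67, exact sign-flip p = 0.00781, adjusted p = 0.0104). This comparison was added after the data were seen. B2_Mm alone, at 0.721 ± 0.0854, was below B1 in KO F1, WT F1 and WT M2 and above it in the rest. A mean of at least 50 counts was reached by 1324 of the B1 regions, against 212 of 447 B2_Mm and 633 of 1196 B3 regions. The part of depth in the difference was not tested. The 4 libraries on the negative side of the first component (KO F1 and M1 with WT F1 and M2) had the 4 lowest B2_Mm ratios (0.612 to 0.684) and the 4 highest B1 ratios (0.659 to 0.707). The part of that component in the ratios was not tested. Between genotypes the ratio over all B2 copies differed by less than the spread, at -0.11 ± 0.15 in KO libraries and -0.12 ± 0.13 in WT libraries on the log2 scale (SD, n = 4 each; exact permutation p = 0.943).

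**Figure D2:**
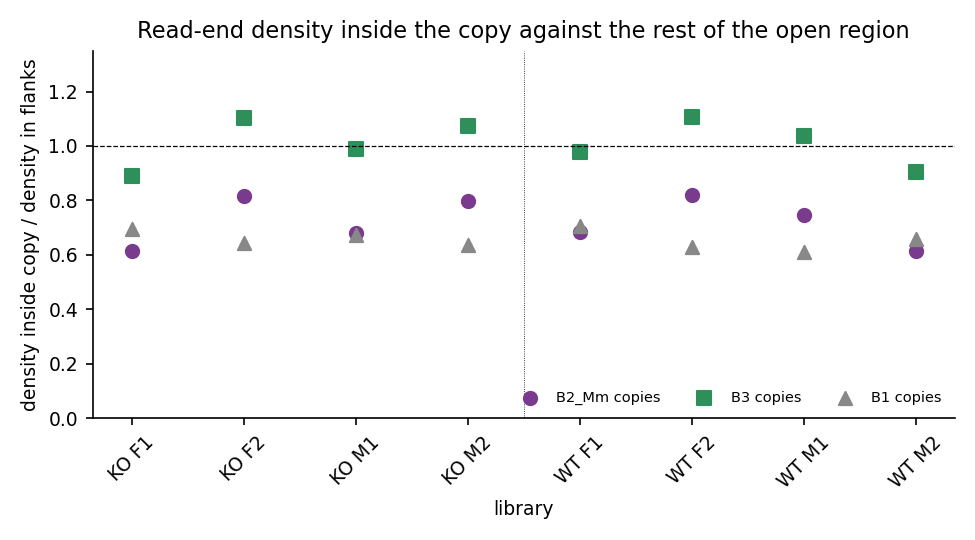
Ratio of read-end density inside the copy to that in the rest of the open region (y axis, no unit) in each library (x axis, KO left of the dotted line, WT right), for 447 B2_Mm (purple circles), 1196 B3 (green squares) and 1707 B1 copies (grey triangles); the dashed line marks equal density. B2_Mm lies below B3 in all 8 libraries, with means of 0.721 and 1.01, and both move together from library to library.

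Single regions reached ratios far above and below these sums. The highest B3 ratios among regions with a mean of at least 100 counts were at chr3:40752966-40753297, where a 198-bp B3A copy fills most of a 332-bp region, and at chr10:117567124-117567697, with a 199-bp B3 copy. The first had a ratio of 11.3 over all libraries (8.44 in KO M1 to 27.7 in WT F1) and the second 11.1 (8.37 in WT F2 to 13.2 in KO F1). In both, most cutting fell in the copy. The highest B2_Mm ratios belonged to 2 B2_Mm2 copies, at 4.25 (3.63 to 5.21) for the 154-bp copy in chr13:69657564-69658270 and 3.80 (2.77 to 5.17) for the 229-bp copy in chr14:102749866-102750588, both well inside their regions.

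The lowest ratios came from copies at the edge of a region. The B3A copy of 183 bp in chr17:67611799-67612389 had a ratio of 0.138 (0.0865 to 0.223) and left 15 bp of region on 1 side. The B3 copy of 89 bp in chr2:25100733-25101749 had 0.176 (0.124 to 0.223) and left 5 bp. The lowest B2_Mm values belonged to fragments of 19 bp (chr4:131894216-131894582, B2_Mm1t, ratio 0 in all 8 libraries) and 13 bp (chr15:80884513-80885078, B2_Mm2, 0.0859 over all libraries and 0 in 6 of them), both ending at the border of the region. A fragment that short holds few read ends, so a 0 there says little.

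B2 copies outside OCRs showed the same order of names as the regions' density. In counts per kb per M counts of the whole table, the mean over copies that share no base with an OCR was 0.563 ± 0.132 for 17248 B2_Mm1a, 0.431 ± 0.0957 for 24150 B2_Mm1t and 0.391 ± 0.0732 for 79213 B2_Mm2 copies (SD, n = 8). It was 0.344 ± 0.0489 for 82787 B3A and 0.331 ± 0.0480 for 134306 B3 copies. The B2_Mm copies together had 0.423 ± 0.0858 and the B3 names together 0.336 ± 0.0483. The log2 ratio was 0.32 (95% interval 0.15 to 0.48), with B2_Mm higher in 8 of 8 libraries (exact two-sided sign-flip p = 0.00781, adjusted p = 0.0104 over 8 tests), and it was 0.36 for copies of at least 100 bp and 0.33 for copies touching no other repeat. The unknown placement of reads with several equal matches bears on this ratio too, and its part was not tested. It ranged from 0.11 (KO F1) to 0.52 (WT M1) between libraries. Within every library B2_Mm1a lay above B2_Mm1t, B2_Mm1t above B2_Mm2 and B3A above B3. B2_Mm2 lay above B3A in every library but KO F1 (0.3292 against 0.3295). These steps were not tested. For every name KO M2 is the highest library and WT M2 the lowest. The scale is the whole table, of which 64.6% lay in OCRs in KO M2 and 74.5% in WT M2, within a range of 64.6 to 76.4% between libraries. The part of this share in the order of libraries was not tested.

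**Figure D3:**
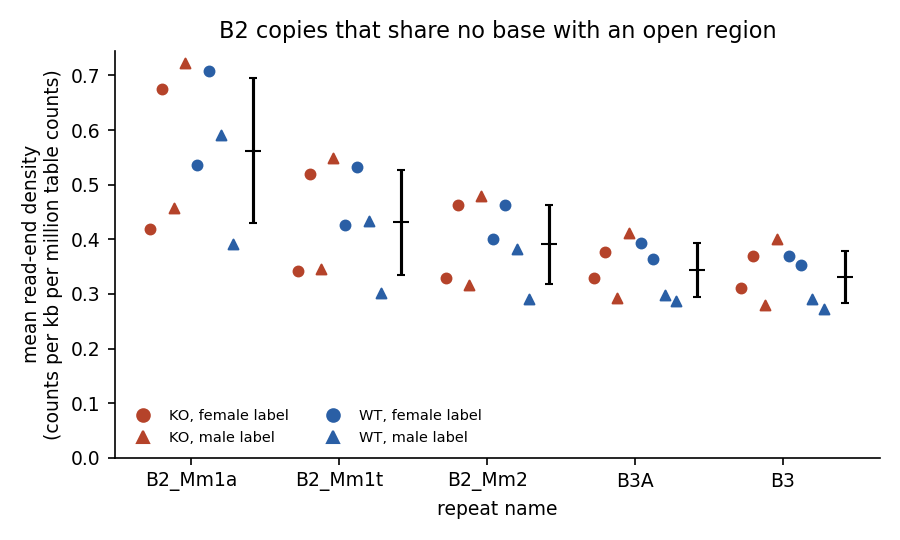
Mean read-end density (y axis, counts per kb per M counts of the table) of B2 copies that share no base with an open region, by name (x axis), 1 point per library in red for KO and blue for WT, circles for female and triangles for male labels, with bars for mean ± SD of 8 libraries. The names order from B2_Mm1a (0.563) to B3 (0.331), and the spread between libraries is widest for B2_Mm1a.

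The total accessibility of B2 regions differed less between genotypes than between libraries. Of all counts in OCRs, B2 regions took 2.47% ± 0.0465 in KO libraries and 2.46% ± 0.0365 in WT libraries (SD, n = 4 each). The fold of KO over WT was 1.00, and its 95% interval ran from 0.965 to 1.05 (exact two-sided permutation test over 70 assignments, p = 0.886). B2_Mm regions took 0.747% ± 0.0298 in KO libraries and 0.738% ± 0.0275 in WT libraries, and KO over WT was 1.01 (0.932 to 1.10; exact permutation p = 0.629). B3 regions took 1.64% ± 0.0178 in KO libraries and 1.64% ± 0.00692 in WT libraries, and KO over WT was 0.998 (0.984 to 1.02; exact permutation p = 0.714). Adjusted over the 5 permutation tests, each p was 0.943, and the smallest p this design can give is 0.0286.

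The B2_Mm share separated libraries within each genotype instead. It was 0.713, 0.777, 0.730 and 0.766% in KO F1, F2, M1 and M2, and 0.727, 0.765, 0.756 and 0.705% in WT F1, F2, M1 and M2. The low libraries are KO F1 and M1 with WT F1 and M2, the same 4 as on the negative side of the first component of the other OCRs, and the part of that component in the share was not tested. On the positive side KO F2 and KO M2 had 0.777 and 0.766%, against 0.765 and 0.756% in WT F2 and WT M1. On the negative side KO F1 and KO M1 had 0.713 and 0.730%, against 0.727 and 0.705% in WT F1 and WT M2. The B3 share moved less, from 1.62% (KO F1 and KO M2) to 1.66% (KO F2), with all 4 WT libraries between 1.63 and 1.65%.

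**Figure D4:**
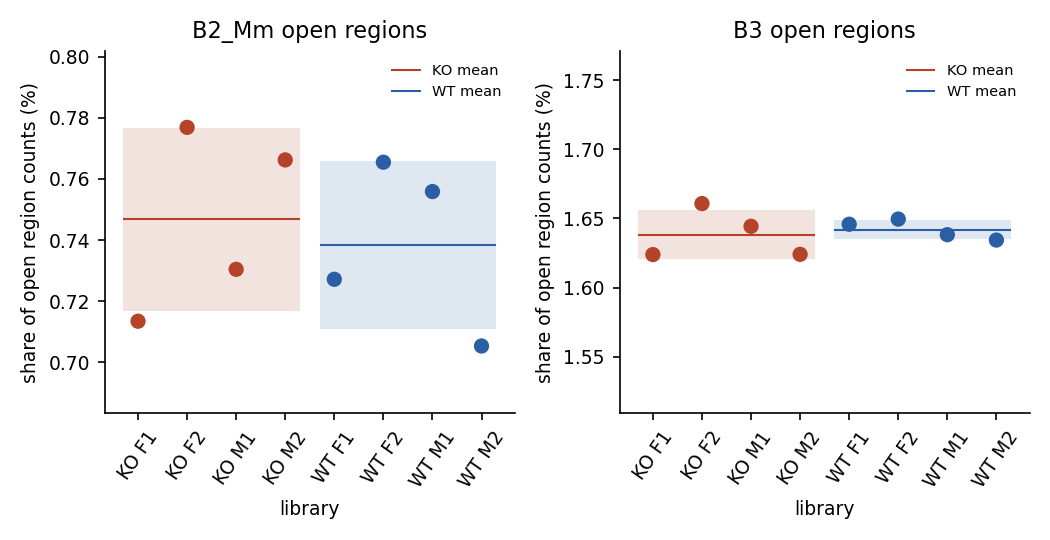
Share of open region counts (y axis, %, not starting at 0) held by B2_Mm regions (left) and B3 regions (right) in each library (x axis), with the genotype mean as a line and 1 SD on each side shaded, red for KO and blue for WT. B2_Mm shares run from 0.705 to 0.777% with both genotypes spread over that range, and B3 shares stay between 1.62 and 1.66%.

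Region by region, no B2 region passed edgeR's test between genotypes with the sex label as covariate. Of the 6205, 6198 passed the filter on low counts, and edgeR called 0 of them at an adjusted p of 0.05, as it did of all 185130 OCRs tested (0% called). At an unadjusted p under 0.05 there were 461 B2 regions (7.44%), against 9.88% of all OCRs tested. Of these, 320 (5.16%) had higher and 141 (2.27%) lower values in KO, against 6.43% and 3.45% of all OCRs. The share was 7.70% in B2_Mm regions, 7.55% in B3 regions and 3.91% in mixed regions. Leaving out 1 library moved the count of 461 to 229 (without KO M2), 290 (without WT M1) or 299 (without WT M2).

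Other counts of the same comparison also lay near or below those of all OCRs. DESeq2 called 62 of the 5836 B2 regions to which it gave an adjusted p (1.06%), against 1.46% of all OCRs. Values were higher in KO for 51 (0.874%) and lower for 11 (0.188%), against 1.23% and 0.222% of all OCRs, so whether any B2 region is called depends on the tool. It also depends on how replicate numbers enter the model, as a block with exchanged male numbers made calls. The CPM values of the genotypes did not overlap in 284 B2 regions (4.58%), against 5.99% of all OCRs. The median log2 difference of KO over WT was 0.0092 in B2 regions and 0.00032 over all OCRs, and 3.32% of B2 regions and 4.51% of all OCRs differed by more than 2-fold. For 58.3% of B2 regions the 95% interval of edgeR lay within a 2-fold difference in either direction (60.5% of all OCRs), so for the other regions a difference of that size was not excluded at this depth and number of mice.

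The 4 B2 regions with the lowest p and higher values in KO were B3 regions, the kind that made up 4214 of the 6198 tested. In edgeR, 5.67% of B2_Mm and 5.13% of B3 regions had higher values in KO at an unadjusted p under 0.05, against 6.43% of all OCRs. The 400-bp region chr19:11966696-11967095, with 167 bases of B3, had 1.28, 2.81, 1.03 and 2.01 CPM in KO F1, F2, M1 and M2, and 0.438, 0.755, 0.486 and 0.462 CPM in WT F1, F2, M1 and M2 (3.27-fold). At chr17:71139600-71140079, with 47 bases of B3, the KO libraries had 4.52, 8.99, 3.74 and 10.9 CPM and the WT libraries 1.56, 3.15, 1.98 and 1.38 CPM (3.49-fold). The groups do not overlap at either region, and KO F2 and KO M2 are the high KO libraries at both. At chr2:29977211-29977602, with 78 bases of B3A, KO had 0.792, 1.45, 1.26 and 1.94 CPM and WT 0.438, 0.578, 0.385 and 0.346 CPM (3.08-fold). At chr3:61361912-61362246, with 160 bases of B3, KO had 0.466, 1.07, 0.463 and 1.08 CPM and WT 0.219, 0.267, 0.162 and 0.154 CPM (3.80-fold). KO F2 and KO M2 are again above KO F1 and KO M1 at the last 2 regions, and WT F2 is the highest WT library at all 4. The edgeR adjusted p of each was 0.322, and that of DESeq2 lay between 0.00549 and 0.0378. These regions rest on few counts. By library the counts ran from 16 to 116.5, 57 to 371, 16.5 to 71 and 7.5 to 44.5, in the order given.

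Of the 4 with the lowest p and lower values in KO, 1 was a B2_Mm region and 3 were B3 regions with B3A. The region chr9:70256518-70257081, with 21 bases of B2_Mm2, had 1.84, 1.96, 1.62 and 1.51 CPM in KO F1, F2, M1 and M2, and 3.32, 3.13, 4.64 and 3.15 CPM in WT F1, F2, M1 and M2 (0.488-fold). At chr3:104257553-104258364, with 20 bases of B3A, KO had 2.63, 1.89, 4.45 and 2.87 CPM and WT 4.49, 5.51, 6.36 and 5.92 CPM (0.522-fold). The groups are apart in both, at the second by the small step between KO M1 and WT F1. At chr17:6735249-6735979, with 56 bases of B3A, KO had 2.75, 2.91, 3.26 and 3.80 CPM and WT 5.01, 4.49, 5.51 and 5.58 CPM (0.615-fold). At chr6:49994444-49994921, with 209 bases of B3A, KO had 1.30, 1.11, 1.03 and 1.08 CPM and WT 2.27, 2.38, 2.96 and 1.73 CPM (0.484-fold). This is the only 1 of the 4 in which the copy is more than a small part of the region. The edgeR adjusted p was 0.322 for each, and that of DESeq2 0.0108 to 0.0271. All 8 regions were picked for a low p among 6198, which favours groups that do not overlap and large folds, so their separation is a description.

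**Figure D5:**
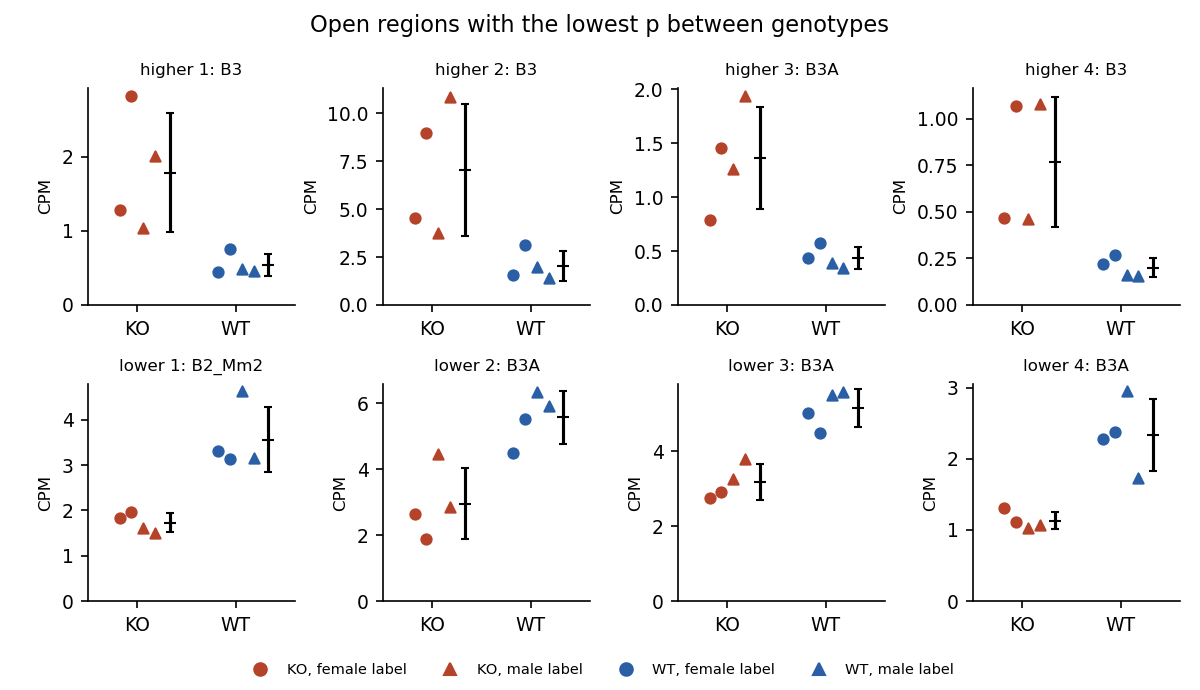
CPM (y axes, each from 0) in the KO libraries (red, left) and WT libraries (blue, right) of the 4 B2 regions with the lowest p and higher values in KO (top, in order of p) and the 4 with lower values in KO (bottom), each titled with its repeat name; circles are female and triangles male labels, and bars are mean ± SD of 4 libraries. The genotypes do not overlap in any of the 8, and the KO libraries of the top regions spread more widely than the WT ones.

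Between the sex labels no B2 region was called. With edgeR, 0 of 6198 regions passed between male-labelled and female-labelled libraries (0% of all OCRs), with 40 at an unadjusted p under 0.05 (0.645%, against 0.999% of all OCRs), and DESeq2 called 0 (0.00972% of all OCRs). The test of whether the genotype difference itself differed between the sex labels called 0 regions by edgeR (0% of all OCRs), with 71 at an unadjusted p under 0.05 (1.15%, against 1.55%). These counts keep the library labelled KO F2 as female. Without it, edgeR still called 0 B2 regions between the sex labels.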

How the data were processed

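The values are estimated counts, made by the authors with featureCounts 2.0.3 over peaks and annotated repeats together, per the file headers. A read counted at its 5' end, and a read end in several regions gave each an equal fraction. The submitters' processing notes also name bedtools, Bowtie2, MACS2, Picard, SAMtools and Trim Galore, and the build GRCm39. How reads with several equal matches were placed, whether positions were shifted for the transposase and how peaks were merged across libraries are not given in the sources used here. Read ends in repeats are split, which lowers the counts of OCRs that hold one. 2 OCRs start at 0, so starts in the table may count from 0.

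Overlaps were found with bedtools 2.31.1, using each piece of a repeat listed in several pieces. In the 1643 regions with 1 copy wholly inside and no other repeat, the equal split was checked on 13144 values: 2 times the copy's count was whole, within 0.01, in 100% of them. Read ends in the copy were then 2 times its count, and those in the flanks the OCR's count minus the copy's count.

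Counts were rounded and tested over all OCRs with edgeR 4.0.16 (R 4.3.3; quasi-likelihood, robust fit, sex label as covariate, TMM factors, filterByExpr, Benjamini-Hochberg over 185130 OCRs, threshold 0.05), after a check of the code on simulated counts. CPM use OCR totals scaled by TMM, and log2 folds are those of the edgeR fit at its default prior count. A prior count of 2 entered only the log2 CPM used to check the replicate numbers. Values per library were compared by exact tests, with intervals found by inverting them. P-values measure the spread between libraries of separate mice, per the series' design text; passages and culture days are not given in the labels. Named regions are the 3 B2_Mm and 3 B3 regions with the highest mean CPM, the 4 with the lowest p in each direction, and the 2 of each kind with the highest and the lowest copy-to-flank ratio at a mean of at least 100 counts. Members, lists and tests were chosen with earlier results of these data known. Alternatives were DESeq2 1.42.0, other scaling, filters, member definitions and settings of the ratio, a replicate block and leaving out each library. Sequences and nearby genes were not used here.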

Additional observations from a re-analysis of the deposited data

Results flagged for a closer look

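Single libraries stood apart from the other 3 of their genotype at 3 of the named regions, by a gap that took up over 0.829 of the group's range (the 95% critical value of Dixon's test for 4 values). This was looked for in 68 groups of 4 libraries, and chance alone gives such a gap in about 1 group in 20. At chr5:115790641-115791624, KO M1 had 44.2 CPM, and the next KO library 50.9 CPM. At chr19:11966696-11967095, WT F2 had 0.755 CPM, and the next WT library 0.486 CPM. At chr9:70256518-70257081, WT M1 had 4.64 CPM, and the next WT library 3.32 CPM. WT F2 at the second of these regions lies on the side of the KO values, and WT M1 at the last on the far side from them.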

How the results depend on the processing

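No alternative restored the read ends of copies that cross the edge of an OCR. The lower density of B2 regions and the lower copy-to-flank ratio of B2_Mm against B3 kept their direction and side of the threshold in all alternatives run. The difference of B2_Mm and B3 together from B1 and the B2_Mm to B3 ratio outside OCRs kept theirs too. The B2_Mm to B3 log2 density ratio of 0.068 did not: it was 0.046 with restored read ends, 0.053 with at least 50 shared bases, 0.029 without other repeat classes and -0.015 with the median; the cause was not tested. Against the flanks, the log2 ratio of B2_Mm was 0.011 with flanks of at least 100 bp and -0.074 as the median of own ratios, and that of B3 0.30 and 0.45. Between genotypes, differences near 0 changed sign: the B3 share was 0.00052 percentage points under 1000 bp, and the copy-to-flank log2 difference -0.0071 with flanks of at least 100 bp. Called B2 regions were 62 with DESeq2. Same-numbered KO and WT libraries deviated together for the female labels (r = 0.733) and oppositely for the male ones (r = -0.487). This check does not show whether the numbers pair the mice. With the replicate block 0 B2 regions were called and 564 (9.10%; 12.4% of all OCRs) had an unadjusted p under 0.05. With the male numbers crossed, chosen after seeing the data, the block called 302 (4.87%; 6.21% of all OCRs), and 929 (15.0%; 20.7%) had an unadjusted p under 0.05. Leaving out each library gave 229 to 553 regions at an unadjusted p under 0.05, shares (KO minus WT, percentage points) of -0.014 to 0.023 for B2 regions, -0.0028 to 0.019 for B2_Mm and -0.011 to 0.0011 for B3, a B2_Mm to B3 log2 ratio between genotypes of -0.0031 to 0.038, a copy-to-flank log2 difference of -0.042 to 0.077 and a B3 copy-to-flank log2 ratio of -0.0093 to 0.036. Among named regions, the log2 difference changed sign at chr11:96668164-96669036 (-0.075 to 0.026), chr5:115790641-115791624 (-0.035 to 0.060), chr6:3200672-3201672 (-0.14 to 0.26), chr7:6174414-6175891 (-0.12 to 0.048), chr13:69657564-69658270 (-0.10 to 0.097), chr14:102749866-102750588 (-0.25 to 0.012) and chr2:25100733-25101749 (-0.14 to 0.035). Single regions rest on a median of 48 to 93 counts per library.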
